A study of Mus musculus with 4 samples.

Results

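The state examined was that of 2 mouse tumour lines, 167 and 365, after Smarcb1 had been put back into both. It was taken as the log2 signal of each gene on the Smarcb1 array of line 365 minus that on the Smarcb1 array of line 167, called the restored gap. The same difference between the empty-vector arrays, called the deficient gap, served as the state to compare with. The restored gap rests on 2 of the 4 arrays of the series, 1 array a side, so its values have no replicate and no test of their own.

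Both lines were grown from soft tissue tumours that lacked Smarcb1 and had arisen in p53-/- mice heterozygous for Smarcb1, on a C57BL6/SV129J genetic background. The cells of all 4 arrays were therefore p53 null. The pMIG retrovirus used on each of them carried Smarcb1 or was empty, and total RNA was taken 3 days post infection. Each line stands for 1 tumour, and the labels name no repeat culture.

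Smarcb1 belongs to the core of the SWI/SNF complexes, which use ATP to move or evict nucleosomes and so open promoters and enhancers to transcription factors. Its loss defines rhabdoid tumours, and cells without it hold fewer SWI/SNF complexes at the enhancers of differentiation genes, where Polycomb repression can then spread. Putting the subunit back into such cells lets the complexes form again. Differences between 2 tumours that remain, close or appear at that point were what the restored gap measured.

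Smarcb1 itself was checked first. In line 167 its log2 signal was 4.61 on the empty-vector array and 7.83 on the Smarcb1 array. In line 365 it was 6.01 and 9.61. Both Smarcb1 arrays lay above both empty-vector arrays, and line 365 was the higher line in each state. With Smarcb1 the signal of line 365 was 3.43-fold that of line 167, against 2.64-fold with empty vector, so the lines were not compared at equal Smarcb1 signal. The part of this difference in the other restored gaps was not tested.

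Of 13956 genes with a mean log2 signal of at least 4.27 over the arrays, the Smarcb1 arrays correlated at r = 0.922 and the empty-vector arrays at r = 0.907, which are correlations across genes and not across replicates. The restored gap had an SD of 0.28 among the 5982 dimmer genes that were left out, and the deficient gap one of 0.26 (log2). In 764 genes with a pair of probe sets, both sets gave restored gaps that differed by a median of 0.127, and the 90th percentile of that difference was 0.517. Xist, from the inactive X chromosome, was at 9.72 in line 167 and 9.55 in line 365 with Smarcb1, and Eif2s3y, Kdm5d and Uty lay below 4.27 on all 4 arrays. Macrophage and lymphocyte markers were mostly at or below that limit, with 7 of 22 and 4 of 17 at or above it in line 167 with Smarcb1, and 7 and 3 in line 365.

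The lines differed at fewer genes with Smarcb1 than without it. The restored gap reached 2-fold at 1327 of the 13956 genes (9.51%), with 617 higher in line 365 (4.42%) and 710 lower (5.09%). The deficient gap reached 2-fold at 1794 genes (12.9%), with 784 higher (5.62%) and 1010 lower (7.24%). At a limit of 4-fold the counts were 367 with Smarcb1 (2.63%) and 437 with empty vector (3.13%). With Smarcb1 these were 168 higher (1.2%) and 199 lower (1.43%) in line 365, and with empty vector 225 higher (1.61%) and 212 lower (1.52%). At 8-fold the counts were 139 and 169. The side higher in line 365 had 60 with Smarcb1 against 93 with empty vector, while the lower side had 79 against 76. Across genes the SD was 0.74 for the restored gap and 0.82 for the deficient gap, and the median absolute gap was 0.28 and 0.33 (log2). Of all tested genes, 57.6% had the smaller absolute gap with Smarcb1. The dimmer genes that were left out did not share this order, since their SD was the higher with Smarcb1 and 47 of them against 46 reached 2-fold.

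Each gene was then placed by its gaps in both states at the 2-fold limit. A gap of 2-fold or more to the same side in both states is said to have remained, which held for 858 genes (6.15%). A gap of at least 2-fold with empty vector and under 2-fold with Smarcb1 is said to have closed, which held for 927 genes (6.64%). The converse, a gap that appeared, was found at 460 genes (3.3%), and at 9 genes (0.0645%) the gap was at least 2-fold in both states with opposite sign, or turned. Many of these genes lay near the limit: the gap differed by at least 2-fold between the states at 748 genes (5.36%), among them 255 of those that closed and 219 of those that appeared. By that stricter count the numbers that closed and appeared were thus closer to each other.

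**Figure D1:**
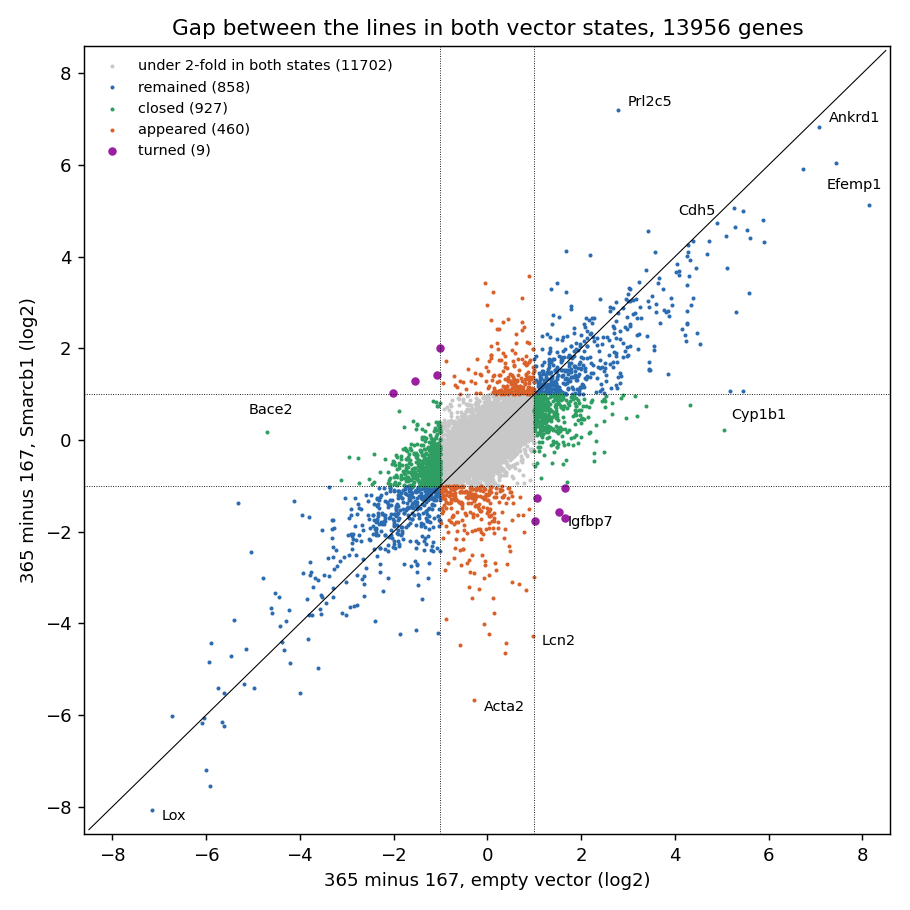
Gap between the lines (log2 signal of 365 minus 167) with empty vector on the x axis and with Smarcb1 on the y axis, 1 point a gene; dotted lines mark 2-fold and the diagonal marks equal gaps. The 858 gaps that remained lie along the diagonal, the 927 that closed lie between the horizontal dotted lines, and Acta2 and Lcn2 stand among the 460 that appeared, far below them.

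Most of the largest differences seen with empty vector were still there once Smarcb1 was restored, and most of those were smaller. Of the 437 genes with a deficient gap of at least 4-fold, 382 kept a gap of at least 2-fold the same way and 360 had a smaller one, and the median ratio of the restored to the deficient gap (log2) was 0.756. Since these genes were picked for a large value in the deficient state, the converse was counted as well. Of the 367 genes with a restored gap of at least 4-fold, 296 had a gap of at least 2-fold the same way with empty vector, and the median ratio of the deficient to the restored gap was 0.935. Among the 858 gaps that remained, 569 were smaller with Smarcb1, and the median absolute gap was 1.90 with empty vector and 1.64 with Smarcb1. A narrowing of at least 2-fold was seen at 95 of them and a widening of at least 2-fold at 39. The sides were not alike among the 12 largest restored gaps each way. The gap was smaller with Smarcb1 at 10 of the 12 higher in line 365 and at 3 of the 12 lower.

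A term for the line, fitted with limma to all 4 arrays beside a term for the vector, passed an adjusted p of 0.05 at 1528 of 13956 genes (10.9%), with 741 higher in line 365 (5.31%) and 787 lower (5.64%). This term is the mean of both gaps set against the amount by which they differ, on 1 residual degree of freedom. It is therefore no test of the restored state alone, and by its construction it favours gaps that remained. It passed at 847 of the 858 gaps that remained, 287 of the 927 that closed, 99 of the 460 that appeared and 0 of the 9 that turned. At an unadjusted p of 0.05 it passed at 4294 genes in all.

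With Smarcb1 restored, the genes furthest above line 167 in line 365 included the endothelial genes Sele, Cdh5 and Procr and the junction gene F11r. Those furthest below included the matrix genes Lox, Ogn, Aspn, Col5a2 and Col12a1. Of the 24 largest restored gaps, 12 each way, 23 were gaps that remained and Acta2 was the exception. The limma line term passed at those 23, with adjusted p from 0.00223 to 0.0495. These genes were picked by the restored gap, which is part of that term. Its p-values for them, here and below, are therefore no separate evidence. The same holds for list members named for a large restored gap. RNA came from whole cultures, so for any gene fewer cells that express it and less RNA per cell cannot be told apart.

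Prl2c5, a prolactin-family hormone gene related to the proliferins, had the largest restored gap in favour of line 365. Line 167 had a log2 signal of 3.34 with empty vector against 3.08 with Smarcb1, and line 365 had 6.12 and 10.28. In what follows, paired values of a line are given in that order. Both arrays of line 167 lay below the limit of 4.27, and in line 365 the Smarcb1 array stood far above the empty-vector array, so the gap was 2.79 with empty vector and 7.19 with Smarcb1. With 1 side below the limit, the 146-fold ratio with Smarcb1 is uncertain in size (limma line term, SE 1.03, adjusted p = 0.0495). Genes of this family are close copies of each other, so which of them the probes measured is uncertain too.

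Ankrd1, a muscle ankyrin repeat protein gene used as a readout of YAP activity, read 4.58 and 4.29 in line 167 and 11.66 and 11.12 in line 365, in the order empty vector and Smarcb1. The restored gap of 6.83 was 114-fold and nearly as large as the deficient gap of 7.08 (limma line term, adjusted p = 0.00223). Sele, the E-selectin gene of activated endothelium, read 4.96 and 4.82 in line 167 and 11.69 and 10.74 in line 365, a restored gap of 5.92. Cdh5, the VE-cadherin gene of endothelial junctions, lay below the limit in line 167 at 3.78 and 3.64 and read 9.06 and 8.29 in line 365. For each of these genes both arrays of line 365 lay far above both of line 167, whichever vector was used.

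The other genes among these 12 were of several kinds. F11r, which encodes the tight junction protein JAM-A, had a restored gap of 5.0, and Procr, the endothelial protein C receptor gene, one of 4.74. Col4a1, a chain of basement membrane collagen, read 5.42 and 5.89 in line 167 and 10.51 and 10.34 in line 365. Fst, the gene of the activin antagonist follistatin, had a restored gap of 4.59, Sema3a, a secreted repellent of axons, one of 4.55, and Bcar3, a signalling adaptor of the Cas pathway, one of 5.06. Akr1b8, an aldo-keto reductase gene, had a restored gap of 4.81. Efemp1, the gene of the matrix protein fibulin-3, was the member of the 12 with the most reduced gap, from 8.14 to 5.12: its signal in line 167 was 4.20 with empty vector and 6.93 with Smarcb1, and in line 365 it was 12.35 and 12.05.

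Most other endothelial markers were not high beside these genes. Of 11 tested endothelial markers 3 had a restored gap of at least 2-fold in favour of line 365, namely Cdh5, Esam and Ramp2. Esam, an endothelial adhesion molecule gene, read 4.60 and 4.38 in line 167 and 8.17 and 8.48 in line 365, and Ramp2, a receptor partner for adrenomedullin, had a restored gap of 3.03. Pecam1 at 4.30, Tek at 3.75, Erg at 4.16 and Emcn at 3.19 were near or below the limit in line 365 with Smarcb1, and Kdr read 4.80 there. Eng, the endoglin gene, went the other way with a restored gap of -1.66. Either way, 36.4% of the 11 tested markers reached 2-fold with Smarcb1, against 9.51% of all tested genes. Over all 17 endothelial markers on the array, 9 were at or above the limit in line 167 and 13 in line 365 with Smarcb1.

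Lox, which encodes the lysyl oxidase that crosslinks collagen and elastin, had the widest restored gap of all named genes. In line 167 it read 10.97 and then 11.93 with Smarcb1 restored, and in line 365 it read 3.81 and 3.85. It was thus among the brightest genes of line 167 and below the limit on both arrays of line 365, a restored gap of -8.08 (271-fold lower in line 365, uncertain in size; limma line term, adjusted p = 0.00223). Ogn and Aspn, the genes of the small leucine-rich proteoglycans osteoglycin and asporin, had the same shape. Ogn read 8.85 and 10.24 in line 167 and 2.93 and 2.69 in line 365, and Aspn read 9.11 and 10.31 in line 167 and 3.10 on both arrays of line 365. For all of Lox, Ogn and Aspn the signal of line 167 was the higher with Smarcb1, so the restored gap was wider than the deficient one.

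Collagen genes and a collagen receptor followed. Col5a2, a fibril collagen chain, had restored and deficient gaps of -6.14 and -5.65, and Col12a1, which coats fibrils, had -6.07 and -6.05. Ddr2, a receptor tyrosine kinase that binds fibrillar collagen, read 11.13 and 10.90 in line 167 and 4.41 and 4.89 in line 365. Grb10, an imprinted adaptor that restrains insulin and IGF receptors, read 9.89 and 10.63 in line 167 and 4.28 and 4.39 in line 365. Ptn, the growth factor gene of pleiotrophin, had a restored gap of -6.17, the homeobox gene Meox2 one of -5.52, Ccdc80, a secreted matrix-associated protein gene, one of -5.52, and Fam111a, a protease gene of DNA replication, one of -5.42. Both arrays of line 167 were above both of line 365 for each of them.

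**Figure D2:**
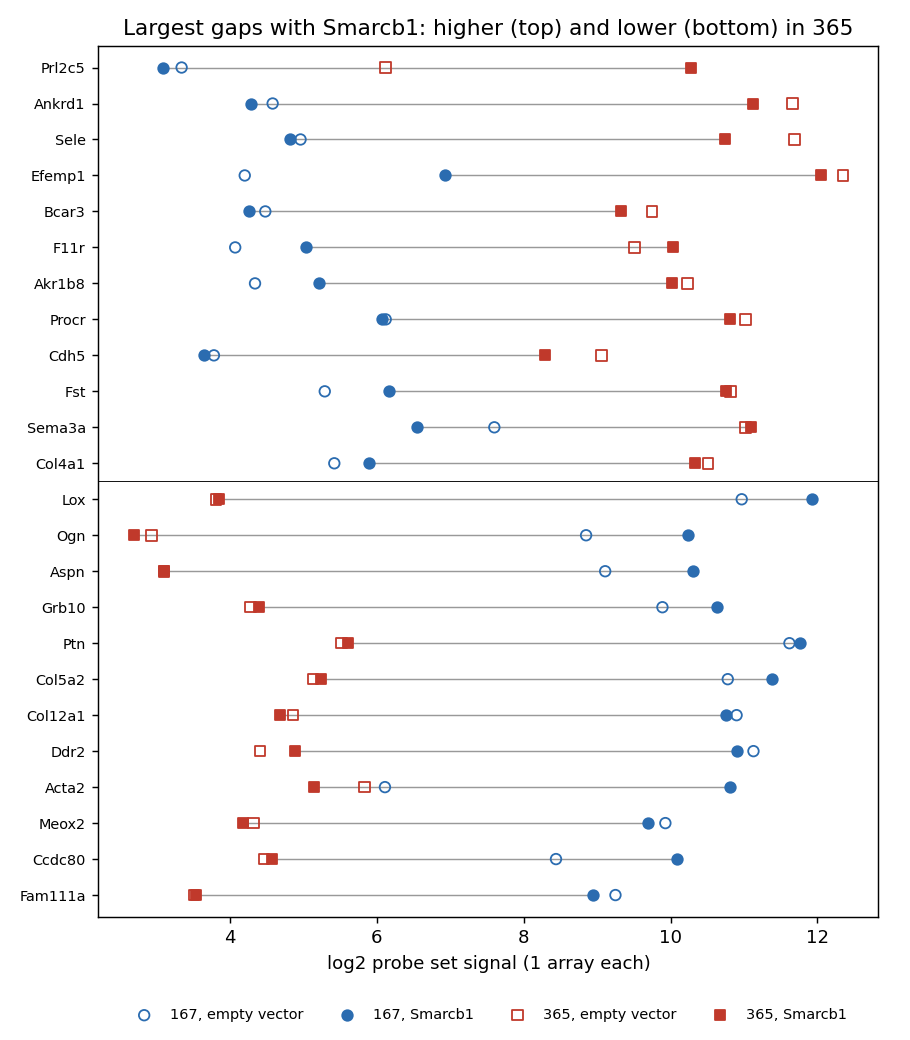
Log2 probe set signal on each of the 4 arrays for the 12 largest restored gaps higher in line 365 (top) and the 12 lower (bottom); open symbols are empty vector, filled symbols Smarcb1, and a grey line joins the Smarcb1 arrays. Open and filled symbols of a line lie close together for most of these genes, while Prl2c5 in line 365 and Acta2 and Efemp1 in line 167 are far apart between vectors.

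HOX genes held nearly the same differences in both states. They encode the homeobox factors that mark where in the embryo a cell came from, and 16 of 33 tested members had a restored gap of at least 2-fold, 6 higher and 10 lower in line 365. Of these, 15 were gaps that remained and 1, Hoxd4, appeared, while 0 closed; the median restored gap was -0.33 and the median deficient gap -0.27, against medians of 0.0038 and -0.034 over all tested genes. In the Hoxa cluster 7 of 9 genes were at least 2-fold lower in line 365 and 0 higher, and in the Hoxd cluster 4 of 8 were at least 2-fold higher and 0 lower. The Hoxb cluster had 2 of 9 lower and 0 higher, and the Hoxc cluster was split, with 2 of 7 higher and 1 lower. Of the tested HOX genes 48.5% thus reached 2-fold with Smarcb1, against 9.51% of all tested genes. The same 9.51%, or 12.9% with empty vector, is the share to set beside each list count below that takes both ways together. Beside counts of 1 side belong 4.42% higher and 5.09% lower with Smarcb1, and 5.62% higher and 7.24% lower with empty vector. For gaps that remained, closed or appeared, the shares of all tested genes were 6.15%, 6.64% and 3.3%. A count of 0 in a short list is near such shares.

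Hoxd13, the gene of the most distal limb and tail territory, read 4.90 and 4.95 in line 167 and 8.08 and 8.03 in line 365. Its gap was 3.17 with empty vector and 3.08 with Smarcb1 (limma line term, adjusted p = 0.00408). Hoxa5 read 9.64 and 9.48 in line 167 and 7.55 and 7.36 in line 365, with gaps of -2.10 and -2.12. Hoxc10 and Hoxa2 had restored gaps of -2.42 and -2.28. In each of these genes the vector moved the gap by less than the 0.517 seen between probe sets of a gene.

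Other regional and lineage transcription factors lay on both sides. Of 83 tested, 16 were at least 2-fold higher and 8 lower in line 365 with Smarcb1, and 19 gaps remained, 6 closed and 5 appeared. Gata2, a zinc finger factor of blood and endothelial development, read 5.37 and 5.79 in line 167 and 9.65 and 9.90 in line 365, and Pax6, a factor of eye and neural development, had a restored gap of 3.02. Prrx1, a factor of limb and facial mesenchyme, read 11.68 and 11.91 in line 167 and 9.04 and 8.95 in line 365. Sox11 had a restored gap of -2.75. Foxc1, a factor of mesodermal and vascular development, was set apart with Smarcb1, from a gap of -0.57 to one of -2.71, and Prrx2 and Ebf1 went from 0.04 and -0.10 to -1.56 and -1.47.

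A different set of genes was under 2-fold apart between the lines without Smarcb1 and at least 2-fold apart with it. Of the 147 gaps that appeared lower in line 365 with a gap difference of at least 2-fold, 135 were ones in which the larger response was a higher signal with Smarcb1 in line 167, and 12 a lower signal in line 365. Of the 72 that appeared higher in line 365, 58 were a higher signal in line 365 and 14 a lower signal in line 167.

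**Figure D3:**
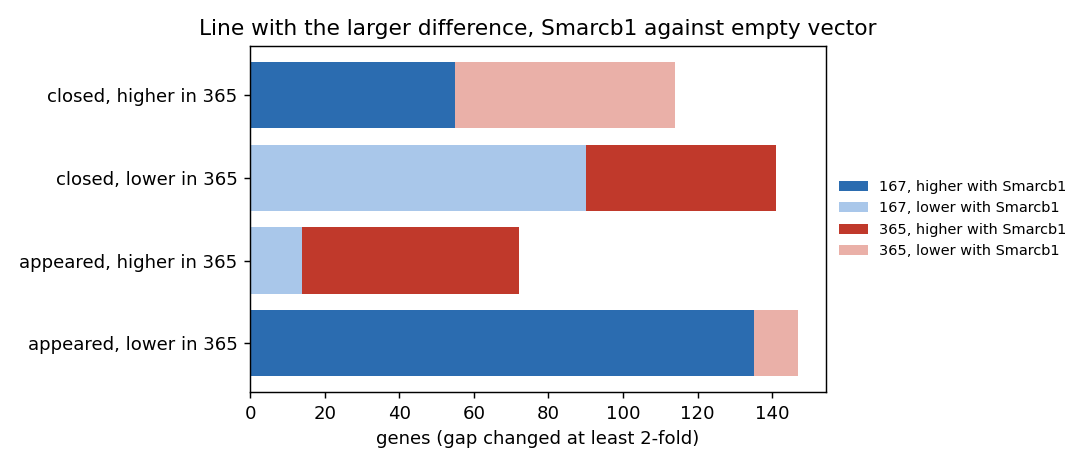
Number of genes whose gap closed or appeared with a difference of at least 2-fold between the states, split by the line with the larger response and its direction. The bar for gaps that appeared lower in line 365 is mostly signals that were higher with Smarcb1 in line 167, 135 of 147 genes. By construction each bar can hold only a higher signal in one line or a lower signal in the other. Of all 13956 tested genes, 7634 had the larger response in line 167.

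Acta2, the smooth muscle alpha-actin gene, read 6.11 and 5.83 in lines 167 and 365 with empty vector, and 10.81 and 5.14 with Smarcb1. Its gap was -0.28 before and -5.66 after, a 50.7-fold difference with Smarcb1, and only the Smarcb1 array of line 167 stood apart from the other 3. Tagln, the gene of the actin-binding protein transgelin, read 5.71 and 9.15 in line 167 and 4.84 and 5.24 in line 365, so that a gap of -0.88 became one of -3.90. Of 30 tested genes of the contractile and actin cytoskeleton, 1 was at least 2-fold higher and 7 lower in line 365 with Smarcb1, against 3 and 4 with empty vector. Tpm2 and Myl9, a tropomyosin and a myosin light chain gene, were already lower in line 365 and had restored gaps of -3.59 and -3.30. Actg2, the gamma smooth muscle actin gene, turned from 1.05 to -1.27.

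Smooth muscle and pericyte markers had 10 tested genes, of which 4 were at least 2-fold lower in line 365 with Smarcb1, 2 of them as gaps that remained and 2 as gaps that appeared. Pdgfrb, the PDGF receptor of pericytes and fibroblasts, read 8.95 and 9.36 in line 167 and 5.12 and 5.03 in line 365, and Cnn1, the calponin gene, had a restored gap of -2.60. Mcam, an adhesion molecule of pericytes and endothelium, went from -0.51 to -1.96. The mean log2 signal of the 15 markers on the array was 5.66 and 6.26 in line 167 and 5.10 and 5.12 in line 365.

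Saa3, Lcn2 and Lbp were also among the 10 largest gaps that appeared lower in line 365. Saa3, which encodes an acute-phase serum amyloid, read 4.0 and 8.74 in line 167 and 4.38 and 4.08 in line 365, and Lcn2, the gene of the iron-siderophore binder lipocalin-2, read 5.57 and 11.65 in line 167 and 6.53 and 7.38 in line 365. Lbp, the gene of a carrier of bacterial lipopolysaccharide, read 4.32 and 9.47 in line 167 and 4.72 and 5.05 in line 365. In all of these the Smarcb1 array of line 167 alone was high, and the restored gaps were -4.66, -4.27 and -4.42. Il1rn, the gene of the interleukin-1 receptor antagonist, had a restored gap of -4.24, and Cxcl5, a chemokine gene for neutrophils, one of -3.14 after a deficient gap of 0.68. Over 30 tested chemokine and cytokine genes, 2 were at least 2-fold higher and 10 lower in line 365 with Smarcb1, against 5 and 6 with empty vector, and the median gap was -0.37 against -0.11. Of these 30, 7 gaps remained, 4 closed and 5 appeared, all 5 lower in line 365. Cxcl10 and Cxcl16 were among those that closed, from 3.20 and 1.87 to 0.52 and 0.35.

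Of 37 matrix glycoprotein genes, 3 were at least 2-fold higher and 11 lower in line 365 with Smarcb1, against 8 and 5 with empty vector; 8 gaps appeared, all of them lower in line 365, and 7 closed, 5 of them from the higher side. Thbs2, a thrombospondin gene, read 4.74 and 8.21 in line 167 and 4.86 and 4.77 in line 365. Fn1, the fibronectin gene, was higher with Smarcb1 in both lines, at 7.93 and 11.82 in line 167 and 6.92 and 9.41 in line 365, and its gap was -1.0 before and -2.42 after. Thbs1, Tgfbi and Nid2 had restored gaps of -1.95, -2.0 and -2.39 where the deficient gaps had been 0.37, -0.13 and -0.52.

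Of 22 tested proteoglycan genes 6 were at least 2-fold lower in line 365 with Smarcb1 and 0 higher, with a median restored gap of -0.80 and a median deficient gap of -0.11. Bgn, the biglycan gene, read 4.78 and 8.75 in line 167 and 4.39 and 5.54 in line 365, and Fmod, the fibromodulin gene, went from -0.12 to -2.52. Among 35 collagen genes 4 were higher and 10 lower by at least 2-fold, close to the 4 and 9 with empty vector, and 12 gaps remained. The gaps of the type I collagen chains were wider with Smarcb1: Col1a1 read 7.91 and 10.56 in line 167 and 6.38 and 6.41 in line 365, and Col1a2 had gaps of -1.27 before and -3.01 after. Col14a1 was an exception, with a gap that appeared in favour of line 365 at 1.99.

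Fibroblast markers, which share several of these collagens, had 6 of 15 tested genes at least 2-fold lower in line 365 in either state and 0 higher, and all 6 were gaps that remained. Their mean log2 signal over the 18 markers on the array was 7.08 and 7.77 in line 167 and 6.50 and 6.60 in line 365. The list as a whole leaned lower in line 365 only with Smarcb1. Its median gap was 0.10 with empty vector, with 8 of 15 gaps above 0, and -0.83 with Smarcb1, with 11 of 15 below 0. Twist1, a factor of mesenchyme, had a restored gap of -2.25 and Col3a1 one of -5.41. The part of a difference in cell state or cell mixture between the cultures in these gaps was not tested.

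Enzymes that cut the matrix did not go one way. Of 27 tested proteases and inhibitors 5 were at least 2-fold higher and 4 lower in line 365 with Smarcb1. Mmp3, the stromelysin-1 gene, was higher with Smarcb1 in both lines, at 3.93 and 7.66 in line 167 and 4.54 and 9.98 in line 365, and its gap was 0.61 before and 2.32 after. Adamts9, a protease gene of proteoglycan turnover, was set apart the other way, from 0.03 to -2.94. Plaur and Plau, the genes of the urokinase receptor and of urokinase, had restored gaps of 2.47 and 2.12, and Timp3, an inhibitor gene, closed from -1.50 to 0.35.

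Integrins are the receptors that bind cells to the matrix. Of 20 integrin genes, 5 were at least 2-fold higher in line 365 with Smarcb1 against 2 with empty vector, and 2 were lower against 3; the 3 gaps that appeared were all higher in line 365. Over the list the median went the other way, from 0.09 to -0.09, with 8 of 20 gaps above 0 after 11 of 20. Itgb3, the beta chain of the vitronectin receptor, read 5.21 and 6.23 in line 167 and 5.95 and 8.62 in line 365, and Itga7 and Itga4 had restored gaps of 1.90 and 1.30. Itga6, a laminin receptor chain, stood apart in both states with gaps of 4.27 and 4.02, and Itga11, a collagen receptor chain, with -3.84 and -3.46. Among 29 cadherin and immunoglobulin adhesion genes 4 were higher and 6 lower; Cdh2, the N-cadherin gene, went from 0.25 to 1.76 and Cdh11 remained lower in line 365 at -3.71.

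Gaps that appeared in favour of line 365 were fewer, 203 against 257, and the 10 named by the rule ran from 2.41 to 3.58. Havcr2, which encodes the checkpoint receptor TIM-3, read 4.41 and 4.60 in line 167 and 4.37 and 8.03 in line 365. Adcyap1r1, a neuropeptide receptor gene, read 4.98 and 4.97 in line 167 and 5.88 and 8.55 in line 365. Cavin2, a gene of caveolar coat proteins, read 3.83 and 3.86 in line 167, below the limit, and 4.58 and 6.95 in line 365. In these genes the Smarcb1 array of line 365 alone was high. Lhx9, a LIM homeobox gene, had both lines part in opposite directions, with 7.42 and 6.29 in line 167 and 7.75 and 8.87 in line 365, a restored gap of 2.58. Slc14a1, a urea transporter gene, Cd53, a tetraspanin gene, and P2ry1, a purinergic receptor gene, had restored gaps of 2.94, 2.63 and 2.65.

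Where gaps closed, either line could be the one that met the other. Of the 114 gaps that closed from the higher side of line 365 with a gap difference of at least 2-fold, the larger response was a higher signal with Smarcb1 in line 167 at 55 and a lower signal in line 365 at 59. Of the 141 that closed from the lower side, it was a lower signal in line 167 at 90 and a higher signal in line 365 at 51. Here too no other move can be the larger response, which over all 13956 tested genes was that of line 167 at 7634.

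Cyp1b1, a cytochrome P450 gene, read 4.77 and 9.96 in line 167 and 9.83 and 10.17 in line 365. Line 167 alone was low, without Smarcb1, and the gap went from 5.06 to 0.21. Bace2, an aspartyl protease gene, was its mirror image, at 9.64 and 8.71 in line 167 and 4.94 and 8.88 in line 365, with gaps of -4.70 and 0.18. Cav1, which encodes the main coat protein of caveolae, was higher with Smarcb1 in both lines, at 8.13 and 9.81 in line 167 and 5.37 and 9.41 in line 365, and the gap went from -2.76 to -0.40. Hspg2, the perlecan gene, went from -3.12 to -0.87, with 6.17 and 8.47 in line 365 and 9.28 and 9.33 in line 167.

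Other gaps closed through a lower signal. Cxcl10, an interferon-induced chemokine gene, read 6.25 and 6.38 in line 167 and 9.45 and 6.90 in line 365, and Fgf15, a fibroblast growth factor gene, read 5.63 and 5.35 in line 167 and 9.02 and 6.10 in line 365. In both genes the empty-vector array of line 365 alone was high. Nefl, the neurofilament light chain gene, read 10.68 and 7.26 in line 167 and 7.72 and 6.89 in line 365, and its partner Nefm went from a gap of -1.49 to one of -0.33. Esm1, an endothelial proteoglycan gene, met from both sides, at 3.70 and 5.04 in line 167 and 8.02 and 5.80 in line 365.

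**Figure D4:**
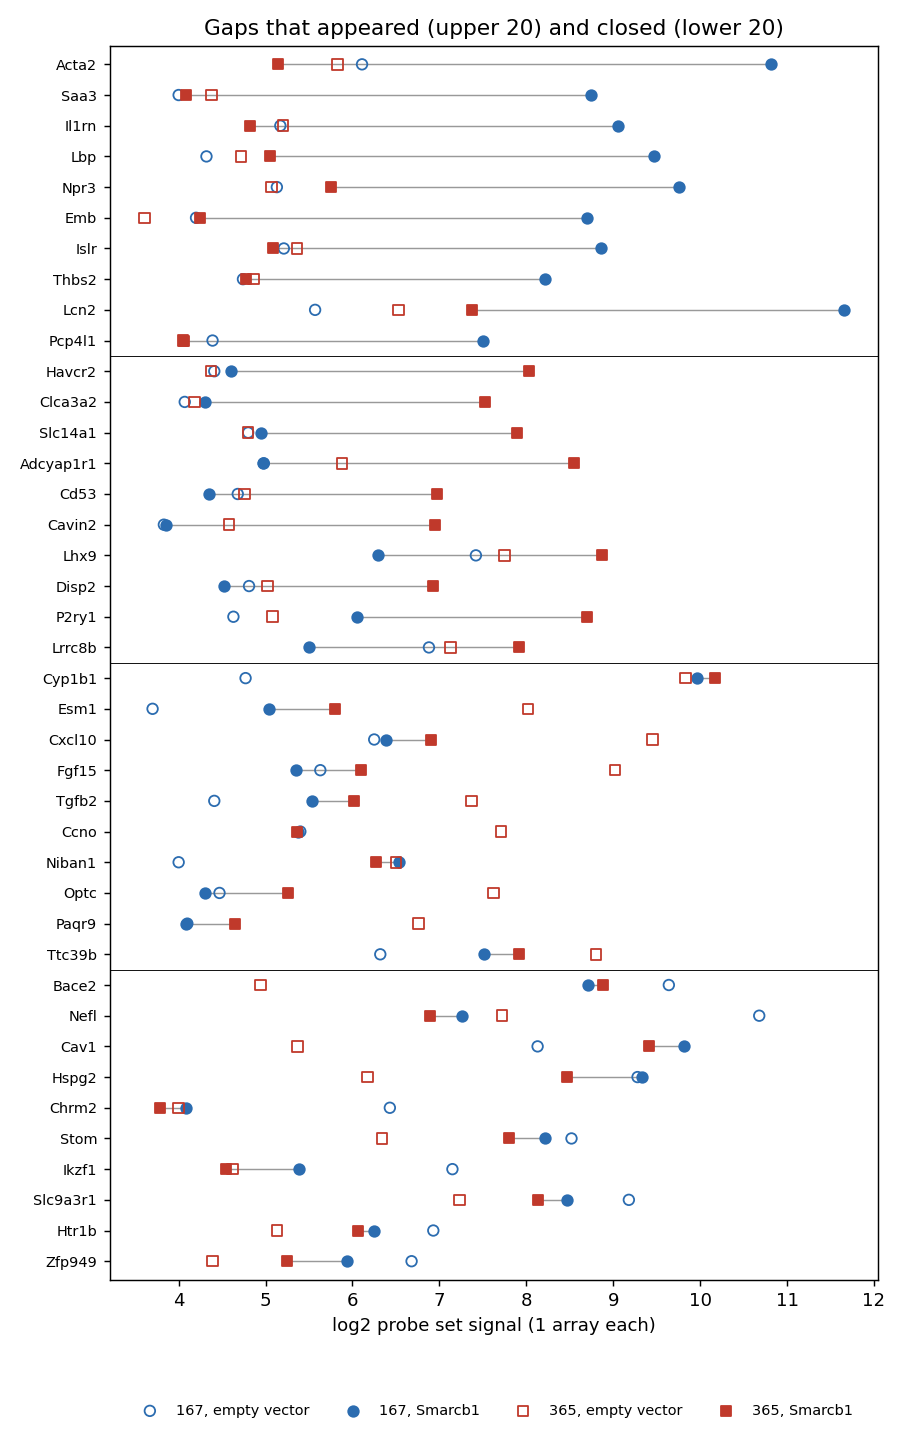
Log2 probe set signal on each of the 4 arrays for gaps that appeared (10 lower and then 10 higher in line 365) and gaps that closed (10 from the higher and then 10 from the lower side); open symbols are empty vector, filled symbols Smarcb1, and a grey line joins the Smarcb1 arrays. In the uppermost block the filled symbol of line 167 stands alone at the right in all 10 genes, and in both blocks of gaps that closed the filled symbols lie closer together than the open ones.

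In the TGF-beta and BMP pathway, which instructs mesenchymal cells through secreted ligands, 5 of 43 tested genes had gaps that remained, 7 that closed and 7 that appeared. Among ligands Bmp4 read 6.10 and 8.06 in line 167 and 8.37 and 7.60 in line 365, so that a gap of 2.27 became one of -0.46, and Tgfb2 and Bmp6 closed from 2.95 and 2.66 to 0.49 and 0.82. Tgfb3 appeared lower in line 365 at -1.94. Of the pathway's regulators Id2, a target of BMP signals, closed from -1.53 to -0.37, and Fstl1 remained lower in line 365 at -1.85. In all, 2 genes were at least 2-fold higher and 10 lower in line 365 with Smarcb1, against 6 and 6 with empty vector.

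WNT genes held many differences in both states. Of 47 tested, 6 were at least 2-fold higher and 15 lower in line 365 with Smarcb1, against 7 and 9 with empty vector; 13 remained, 2 closed, 7 appeared and 1 turned. Most of those named are secreted modulators. Dkk3 read 7.30 and 8.80 in line 167 and 5.44 and 4.57 in line 365, a restored gap of -4.23, while Dkk2 and Sfrp1, both inhibitors, had restored gaps of 3.09 and 2.80. Rspo3, an agonist, had a restored gap of -3.42. Among ligands Wnt11 went from 0.35 to -2.15 and Wnt2 from -0.27 to 1.46. Sfrp2, an inhibitor, turned, with 6.02 and 9.30 in line 167 and 7.68 and 7.59 in line 365.

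The 12 tested Hedgehog genes had 1 gap of at least 2-fold with empty vector and 5 with Smarcb1. The ligand gene Dhh read 4.46 and 4.58 in line 167 and 7.92 and 6.11 in line 365, so its gap narrowed from 3.46 to 1.52. The 4 gaps that appeared were all lower in line 365: the coreceptor genes Gas1 and Boc at -1.37 and -1.07, the decoy receptor gene Hhip at -1.17 and the transcription factor gene Gli2 at -1.14. Of 20 Notch genes 4 gaps remained and 0 appeared. The ligand Jag1 closed from 2.50 to 0.84 and the target Hes1 narrowed from 2.82 to 1.24, both with a higher signal in line 167 with Smarcb1.

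Among 50 receptor tyrosine kinase and ligand genes, 4 were at least 2-fold higher and 11 lower in line 365 in either state, and 11 gaps remained. Fgf2 had a restored gap of -3.39. Gas6, the ligand of the TAM receptors, read 5.93 and 9.84 in line 167 and 6.77 and 6.57 in line 365, and its gap went from 0.83 to -3.27, and Vegfd went from 0.78 to -2.0. In the insulin-like growth factor axis 1 of 17 genes was higher and 4 were lower in line 365. Igf1 appeared lower at -1.79. Igfbp7, the gene of a secreted IGF-binding protein, was higher with Smarcb1 in both lines, at 5.35 and 9.85 in line 167 and 6.87 and 8.28 in line 365, and so turned from 1.52 to -1.56. Among 49 semaphorin, ephrin and receptor genes 6 were higher and 10 lower; Sema3c closed from 2.27 to -0.27, and Plxna4 and Unc5c appeared lower at -2.02 and -2.16.

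Interferon-stimulated genes mark the antiviral response. With empty vector 0 of 30 tested genes were at least 2-fold higher and 9 lower in line 365, and with Smarcb1 4 were higher and 5 lower. The median gap was -0.63 with empty vector and -0.14 with Smarcb1. Irf7, a master factor of the response, read 7.07 and 5.39 in line 167 and 6.42 and 6.55 in line 365, and Usp18, a brake on it, read 6.40 and 4.93 in line 167 and 6.37 and 6.53 in line 365. In both genes the Smarcb1 array of line 167 alone was low. Rtp4 and Dhx58 closed from -1.34 and -1.0 to 0.19 and 0.30, while Ifit1 remained lower at -1.72. Antigen processing genes of MHC class I had 1 of 18 higher and 2 lower in line 365, and Tapbp remained at -1.44.

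Ribosome biogenesis genes, whose products assemble ribosomal subunits, had 6 of 31 tested members at least 2-fold higher in line 365 without Smarcb1. Once it was restored there were 2 (6.45%, against 9.51% of all tested genes). The smaller gap was the restored one for 27 of 31, against 57.6% of all tested genes. The median gap was 0.70 before and 0.26 after, and the larger response was that of line 365 in 28 of them. Rrs1 read 7.20 and 7.79 in line 167 and 8.70 and 8.04 in line 365, and Utp20 and Bysl narrowed from 1.82 and 1.67 to 1.11 and 1.01. Among cell cycle genes, 1 of 41 G1/S and replication genes, Rrm2 at 1.11, had a restored gap of 2-fold or more, against 2 with empty vector, and the median was 0.09 after -0.12. Of 34 G2/M genes 0 did, against 2 with empty vector, both lower in line 365. The G2/M median was 0.12 after -0.23, with 22 of 34 gaps above 0 after 6 of 34. Over all 13956 tested genes, 7032 gaps were above 0 with Smarcb1 and 6557 with empty vector. Both G2/M medians are small beside the 0.517 seen between probe sets of a gene. Cdkn2a read 10.13 and 9.81 with Smarcb1. Of 14 genes of CDK inhibitors, pocket proteins and cyclins D, 1 reached 2-fold with Smarcb1 (7.14%, near the share of all tested genes) and 3 with empty vector. Cdk6 went from 1.51 to 1.10, and Cdkn2b closed from -1.58 to -0.96.

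Among 29 tested SWI/SNF subunit genes 3 had a restored gap of at least 2-fold (10.3%), near the 9.51% of all tested genes; 3 gaps remained, 2 closed and 0 appeared. Smarca2, an ATPase subunit, read 8.14 and 8.35 in line 167 and 5.93 and 6.54 in line 365, so line 365 was 3.50-fold lower with Smarcb1 restored (limma line term, adjusted p = 0.0106). Its paralog Smarca4 had a restored gap of 0.53, and Actl6a, an actin-related subunit, one of 1.07. Of 27 Polycomb genes 2 reached 2-fold with Smarcb1 (7.41%); 0 gaps remained, 3 closed and 2 appeared: Pcgf5 at 1.50 and Rybp at -1.10 appeared, and Cbx7 closed from 2.03 to 0.48.

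Imprinted genes had 4 of 21 members higher and 2 lower in line 365 with Smarcb1, and 5 gaps remained. Asb4 and Meg3 remained higher in line 365 at 4.33 and 2.33, and Mest read 8.66 and 6.82 in line 167 and 10.02 and 10.11 in line 365, a gap of 1.36 before and 3.29 after. Peg3 closed from -1.40 to 0.07. In aldo-keto reductases, glutathione transferases and related enzymes of redox defence, 7 of 32 gaps remained, 5 closed and 0 appeared. They did not share a side: Nqo1 remained lower in line 365 at -4.57, while Txnrd1 and Aldh1a3 remained higher at 2.42 and 2.56. Of 19 potassium channel genes 1 was higher and 1 lower with Smarcb1 (10.5% together), near the share of all tested genes.

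Over the array, 186 genes were at least 2-fold higher with Smarcb1 in both lines. Their median absolute gap was 0.549 with empty vector and 0.757 with Smarcb1, and 64 had a restored gap of at least 2-fold, 23 higher and 41 lower in line 365, against 52 with empty vector. Since the responses share their arrays with the gaps, these counts are given as a description. Of the genes fixed by name, Smarcb1, Igfbp7 and Tinagl1 had restored gaps of at least 2-fold, at 1.78, -1.56 and 2.31. The others on the array were under 2-fold, among them Eif2s3y, Kdm5d and Uty, which were too dim to be tested. Over all tested genes 9.51% reached 2-fold. Among 9 of the genes fixed by name that were higher with Smarcb1 in both lines, 2 reached 2-fold in either state. Igfbp7 was higher in both lines as well but is not counted in these 9, and its gaps of 1.52 and -1.56 reached 2-fold in either state too. The 9 had median responses of 3.33 in line 167 and 3.59 in line 365, so they are strong responders and not a sample of the tested genes. Nrp1, a semaphorin and VEGF coreceptor gene, read 5.25 and 9.01 in line 167 and 5.49 and 9.40 in line 365, with a restored gap of 0.39. Efnb2, Prss23 and Phldb2 had restored gaps of 0.41, -0.03 and 0.46, and Akr1c18 and Gda of 0.28 and 0.17. Serpinb1a went from -0.01 to 0.77. Tinagl1, a matrix protein gene, was different: it read 6.68 and 9.64 in line 167 and 8.86 and 11.95 in line 365, the lines were 2.96 and 3.09 log2 units higher with Smarcb1, and the gap was 2.18 before and 2.31 after (limma line term, adjusted p = 0.00408).

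Markers of other cell types were counted in the same way, beside 9.51% of all tested genes with a restored gap of at least 2-fold. Schwann cell and neural crest markers (9.09%) and bone and cartilage markers (10%) were near that share. Skeletal muscle, neuronal, epithelial and adipocyte markers had 15%, 17.4%, 19% and 15.4%, from few genes each. Skeletal muscle markers had 3 of 20 higher in line 365 with Smarcb1, namely Tnni1 at 3.72, Chrna1 at 2.95 and Pax3 at 2.53, and all 3 were gaps that remained. Neuronal markers had 2 of 23 higher and 2 lower, with Eno2 at -1.62 and Gap43 at 1.03. Schwann cell and neural crest markers had 1 of 11 higher, Tfap2a at 2.27. Epithelial markers had 1 of 21 higher and 3 lower, and all 4 gaps appeared; Krt19 read 4.67 and 6.52 in line 167 and 5.59 and 8.27 in line 365. Adipocyte markers had 2 of 13 lower, Cebpa and Cebpb at -1.92 and -1.62. Pparg of the same list went the other way at 0.96, and of the 13 restored gaps 4 were above 0 and 9 below. Bone and cartilage markers had 1 of 10 lower, Sox9 at -1.11. Of the 5 macrophage markers tested, H2-Ab1 at -1.69 was at least 2-fold lower in line 365, and of the 3 lymphocyte markers 0 reached 2-fold.

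**Figure D5:**
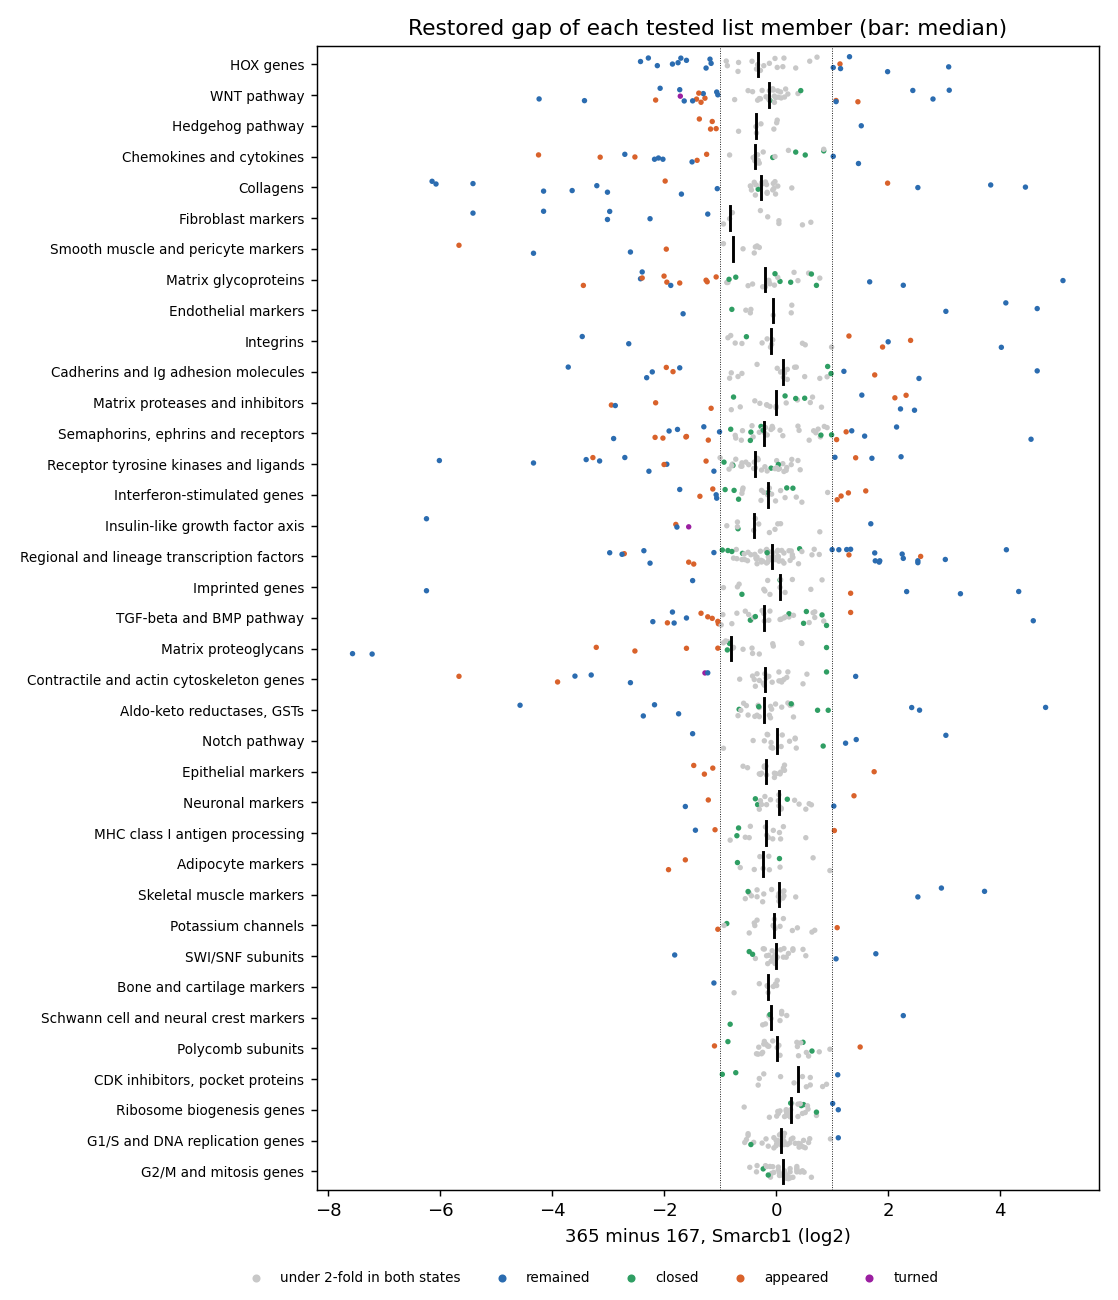
Restored gap (log2, 365 minus 167) of each tested member of the gene lists with at least 10 tested genes, ordered by the share of members past 2-fold; colours give the class of the gap, black bars the list medians and dotted lines 2-fold. HOX genes at the top spread to both sides mostly as gaps that remained, proteoglycans and smooth muscle markers have medians of -0.80 and -0.77, and cell cycle genes at the bottom lie mostly within the dotted lines.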

How the data were processed

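The authors deposited 1 log2 signal for each probe set and array. The submitters' processing notes name RMA and the program Affymetrix Expression Console, with no version given. RMA puts all arrays on 1 distribution, so a difference in total RNA per cell would not show. The platform annotation gave 1 symbol for 21789 of 35556 probe sets, or 19938 genes, and the probe set with the highest mean was kept. The filter kept genes whose mean reached the 30th percentile (log2 4.27). Counts of genes past 2-fold are values with no test, and the number of arrays limits the precision. The line term was a limma fit (lmFit, eBayes with trend; limma 3.58.1 under R 4.3.3), two-sided, with Benjamini-Hochberg adjustment over 13956 genes and 3.75 prior degrees of freedom. In tests on simulated data of 13956 genes it recovered 12.9% of 2-fold and 89.1% of 4-fold line differences, and 6.88% of its calls were false. The simulation gave few genes a line difference and let no gap change with the vector beyond noise. The data differ on both points, so these rates may not hold for them. The p-values set the mean of both gaps against the change of the gap between the vectors, moderated over genes. With 1 array for each line and vector, they measure no spread between repeat cultures.

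Named were 16 genes fixed by name, the 12 largest restored gaps each way, the 10 largest closures and appearances each way, up to 8 gaps that turned, and from each list described up to 4 members with the largest restored gap and those whose gap closed, appeared or turned by at least 2-fold; predicted, clone and sensory receptor genes were passed over. Hoxd4, Twist1, Pecam1, Kdr, Tek, Erg and Emcn fall outside this rule and were named after their values were seen. The 40 lists and the members were chosen with earlier results of these data known. Alternatives were other filters, normalizations, probe set rules, class limits and models.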

Additional observations from a re-analysis of the deposited data

Results flagged for a closer look

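At 9 genes the gap turned, that is, it was at least 2-fold in both states with opposite sign, so that the lines differed one way without Smarcb1 and the other way with it. The difference between the states was not tested for any of them, since each rests on 4 single arrays. Restored minus deficient gap (log2) was -3.36 for Sfrp2, -3.08 for Igfbp7, -2.78 for Ddit4l, -2.70 for Ptprk and -2.32 for Actg2, and in these 5 genes the larger response was a higher signal with Smarcb1 in line 167. It was 3.04 for Cap2, 3.02 for Tm6sf1, 2.84 for Kcnh5 and 2.50 for Ttc9. Actg2 lay below the limit of 4.27 in line 167 with empty vector, at 3.73.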

How the results depend on the processing

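No named gene with a restored gap of at least 2-fold turned its sign under the alternatives run. The excess of genes lower in line 365 with empty vector, 1010 against 784, was gone when arrays were centred on the median, with 874 against 875; with Smarcb1 it was 760 against 580. With no filter on dim genes the SD was 0.63 for the restored and 0.70 for the deficient gap, and 54.2% of genes had the smaller gap with Smarcb1. With a filter at the 50th percentile these were 0.78, 0.89 and 61.2%, and 285 gaps appeared. The SD of the restored gap was 0.73 with cyclic loess, with the mean of all probe sets and with the dimmest probe set of a gene, and quantile normalization gave an SD of 0.81 for the deficient gap. In each of these settings the restored gap had the lower SD, and the median restored gap over all genes, 0.0038 as reported, lay between -0.029 and 0.033. Requiring a gap difference of at least 2-fold left 255 gaps that closed and 219 that appeared. The line term passed at 653 genes without the vector term, and at 1209 to 1939 under its other alternatives. Of 283 named genes, 279 or more stayed within 0.517 of their restored gap in every setting, and at most 3 went from 2-fold to under it. The filters leave the signal of a gene as it is, and the probe set rules can move only genes with several probe sets. For those settings these counts, and the lack of turned signs, were therefore largely fixed in advance. Quantile normalization, cyclic loess and centring could move every named gene, and under each of them all 283 stayed within 0.517. A block on replicate number could not be fitted, because every group has the same single one. The line term compares the lines within each vector instead. With 1 array a side, 127 of the 1327 restored gaps of at least 2-fold have 1 Smarcb1 array below the limit of 4.27, where their size is uncertain, and leaving out an array leaves no gap to measure. Smarcb1 level, line and culture cannot be told apart.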
